A study of Rattus norvegicus with 18 samples.

Results

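The nuclear-encoded structural subunits of respiratory complex I were measured in the extensor digitorum longus (a hindlimb muscle made mostly of fast fibres) of 18 Sprague-Dawley female rats. Members were the probe sets whose single gene symbol in the probe table began with Ndufa, Ndufb, Ndufc, Ndufs or Ndufv and a digit, which leaves out the Ndufaf assembly factors and Ndufab1. The rule found 43 probe sets for 36 genes, and 1 probe set was kept per gene, that of highest mean. Of the 36 genes, 35 had a mean above the filter on low values and were tested among 12642 genes. Ndufb4 was left out, with a mean of 4.80 on the log2 scale against a filter of 5.28, and the lowest members inside it were Ndufb4l1 at 6.89, Ndufb11b at 7.37 and Ndufb4l3 at 7.99. The animals were of the second filial generation (F2), and each group name gives the diet of the founding grandfather (F0) and then that of the female. Both diets were high-fat in the high-fat/high-fat group (4 animals), the grandfather alone was fed high-fat in the high-fat/chow group (4 animals), the female alone in the chow/high-fat group (5 animals), and neither in the chow/chow group (5 animals). The females ate chow or a diet in which 42/45% of energy came from fat for 12 weeks as adults, all were females of 1 strain, and their age is not given in the sources used here. Each array carried RNA of 1 animal. The labels do not say how many males founded each lineage, so relatives within a lineage may make the p-values for the grandpaternal diet too small.

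Complex I is the entry point of the respiratory chain: it takes electrons from NADH, passes them through a flavin and a row of iron-sulphur clusters to ubiquinone, and pumps protons across the inner mitochondrial membrane. Its core subunits are divided between nuclear and mitochondrial genes, and the nuclear accessory subunits hold the peripheral arm and the membrane arm together. In muscle the complex supplies much of the proton gradient that drives ATP synthesis, and its amount tends to follow the mitochondrial content of the fibres. Among the 35 genes were 6 nuclear core subunits, 8 accessory subunits of the peripheral arm, 6 of the proximal membrane arm and 9 of the distal membrane arm. Ndufa4, which was later assigned to complex IV, and 5 genes named as copies or pseudogenes (Ndufb4l1, Ndufb4l3, Ndufb11b, Ndufa13-ps1 and Ndufs6-ps1) make up the rest. Ndufs6, Ndufa10, Ndufa13, Ndufc1, Ndufb1 and Ndufa4l2 were not analysed here. The RefSeq gene table of GRCr8 gives all 35 under the same symbols, on 13 chromosomes, with Ndufa1 and Ndufb11 on X, and calls 2 of them (Ndufa13-ps1 and Ndufs6-ps1) pseudogenes. A probe set named for a pseudogene or a copy can also take up RNA of its parent gene, and the 2 cannot be told apart here.

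Values are log2 of the deposited array intensity plus 16, after quantile normalization, and a level of 1 probe set is not set against that of another. Of the markers of fast fibres, Actn3, the fast-fibre actinin, averaged 12.99 on the log2 scale and Tnnt3, fast troponin T, 12.93, with 6 of 10 listed markers measured and summed intensities of 37160 to 41116, 35674 to 42108, 38290 to 44450 and 40346 to 44983 in the high-fat/high-fat, high-fat/chow, chow/high-fat and chow/chow groups. The 6 measured fat-cell markers, of 7 listed, had means from 5.49 (Cidec) to 8.67 (Fabp4), with Adipoq at 6.30. In whole muscle, fewer cells of a type and less RNA per cell cannot be told apart. Deposited array medians ran from 67.52 to 73.97 in high-fat/high-fat, 60.21 to 70.66 in high-fat/chow, 55.02 to 66.45 in chow/high-fat and 66.29 to 70.52 in chow/chow females. Every high-fat/high-fat array was thus brighter by its median than every chow/high-fat array before normalization. No arrays of a group were copies of each other, since at most 0.0908% of values were identical in any of 32 pairs.

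Promoters are shown for the member with the smallest p for the own diet, Ndufa7 (an accessory subunit of the peripheral arm), and for the 3 subunits of smallest p between grandpaternal diets (the pseudogene Ndufs6-ps1, with a smaller p, has no promoter entry). These are Ndufb7 (a small subunit on the intermembrane-space side of the distal membrane arm), Ndufb3 (a single-span membrane subunit of the distal arm) and Ndufa1 (a small X-linked membrane subunit that early assembly needs). The windows are those of RefSeq on GRCr8, from 250 bases before the start of the gene to 50 after it, in the direction of the gene: chr7:15311196-15311495 on the plus strand for Ndufa7, chr19:41477242-41477541 on the minus strand for Ndufb7, chr9:67623167-67623466 on the plus strand for Ndufb3, and chrX:121293506-121293805 on the minus strand for Ndufa1. Capitals mark matches, on either strand, to 6 words from factors known to act at promoters of respiratory genes or at promoters in general. The words were CGCATGCG for NRF1, CCGGAAG for ETS factors, AAGGTCA for ERR, AAGATGG for YY1, GGGCGG for Sp1 and TATAAA for the TATA box, and none of them contains another.
Ndufa7: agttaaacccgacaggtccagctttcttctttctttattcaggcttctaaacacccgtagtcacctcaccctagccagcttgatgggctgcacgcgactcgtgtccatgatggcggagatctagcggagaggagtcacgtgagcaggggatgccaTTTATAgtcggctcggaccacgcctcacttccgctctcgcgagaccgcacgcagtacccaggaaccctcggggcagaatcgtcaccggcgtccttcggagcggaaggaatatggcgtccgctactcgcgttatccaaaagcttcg
Ndufb7: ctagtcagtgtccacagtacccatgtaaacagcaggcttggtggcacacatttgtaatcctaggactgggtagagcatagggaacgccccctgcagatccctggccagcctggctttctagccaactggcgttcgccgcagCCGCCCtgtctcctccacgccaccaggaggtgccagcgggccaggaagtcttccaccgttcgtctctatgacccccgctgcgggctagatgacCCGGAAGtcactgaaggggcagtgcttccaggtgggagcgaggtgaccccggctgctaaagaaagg
Ndufb3: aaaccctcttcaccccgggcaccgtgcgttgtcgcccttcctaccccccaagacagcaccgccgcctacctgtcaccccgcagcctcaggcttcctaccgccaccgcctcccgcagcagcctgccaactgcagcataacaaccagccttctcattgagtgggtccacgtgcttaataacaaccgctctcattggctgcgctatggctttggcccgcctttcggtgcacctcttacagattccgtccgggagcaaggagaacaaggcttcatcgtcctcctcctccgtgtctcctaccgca
Ndufa1: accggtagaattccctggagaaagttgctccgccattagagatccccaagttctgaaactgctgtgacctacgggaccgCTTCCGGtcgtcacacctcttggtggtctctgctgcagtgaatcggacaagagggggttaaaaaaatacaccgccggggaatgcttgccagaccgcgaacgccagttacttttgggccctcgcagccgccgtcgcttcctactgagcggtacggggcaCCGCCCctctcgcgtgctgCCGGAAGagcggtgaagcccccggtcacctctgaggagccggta

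Ndufa1 held the ETS word in 2 places and the Sp1 word in 1, Ndufb7 held 1 of each, Ndufa7 held the TATA word on the opposite strand, and Ndufb3 held none of the 6. Of the 35 members 31 had a promoter entry. The YY1 word was found in 7 of the 31 promoters (22.6%), against 7.01% of all 33469 promoters of the same length. All 7, of Ndufa2, Ndufa3, Ndufa6, Ndufa9, Ndufb8, Ndufs4 and Ndufs7, held it within the stretch from 4 to 26 bases after the start. The ETS word was in 6 (19.4% against 8.75%), the Sp1 word in 11 (35.5% against 33.1%), the ERR word in 2 (6.45% against 4.61%), the NRF1 word in 1, Ndufa11 (3.23% against 1.66%), and the TATA word in 3 (9.68% against 14.2%). Median GC content was 55.7% in the members and 51.7% in all promoters. A match describes letters only and says nothing of binding.

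None of the 35 members rose or fell past the threshold in any of the 7 comparisons (limma, two-sided moderated tests, Benjamini-Hochberg adjusted p under 0.05 over all 12642 genes). The smallest adjusted p of any member was 0.136, for Ndufs6-ps1 between grandpaternal diets. Differences were small as well: over both lineages every member's difference between own diets lay between -0.11 and 0.14 log2, and between grandpaternal diets, over both own diets, between -0.32 and 0.27. The 95% confidence interval of the difference stayed within 1.5-fold in either direction for 35 of 35 members in both of these averaged comparisons, and within 1.25-fold for 33 for the own diet and 29 for the grandpaternal diet. No member differed by more than 1.5-fold in any of the 7 comparisons.

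**Figure D1:**
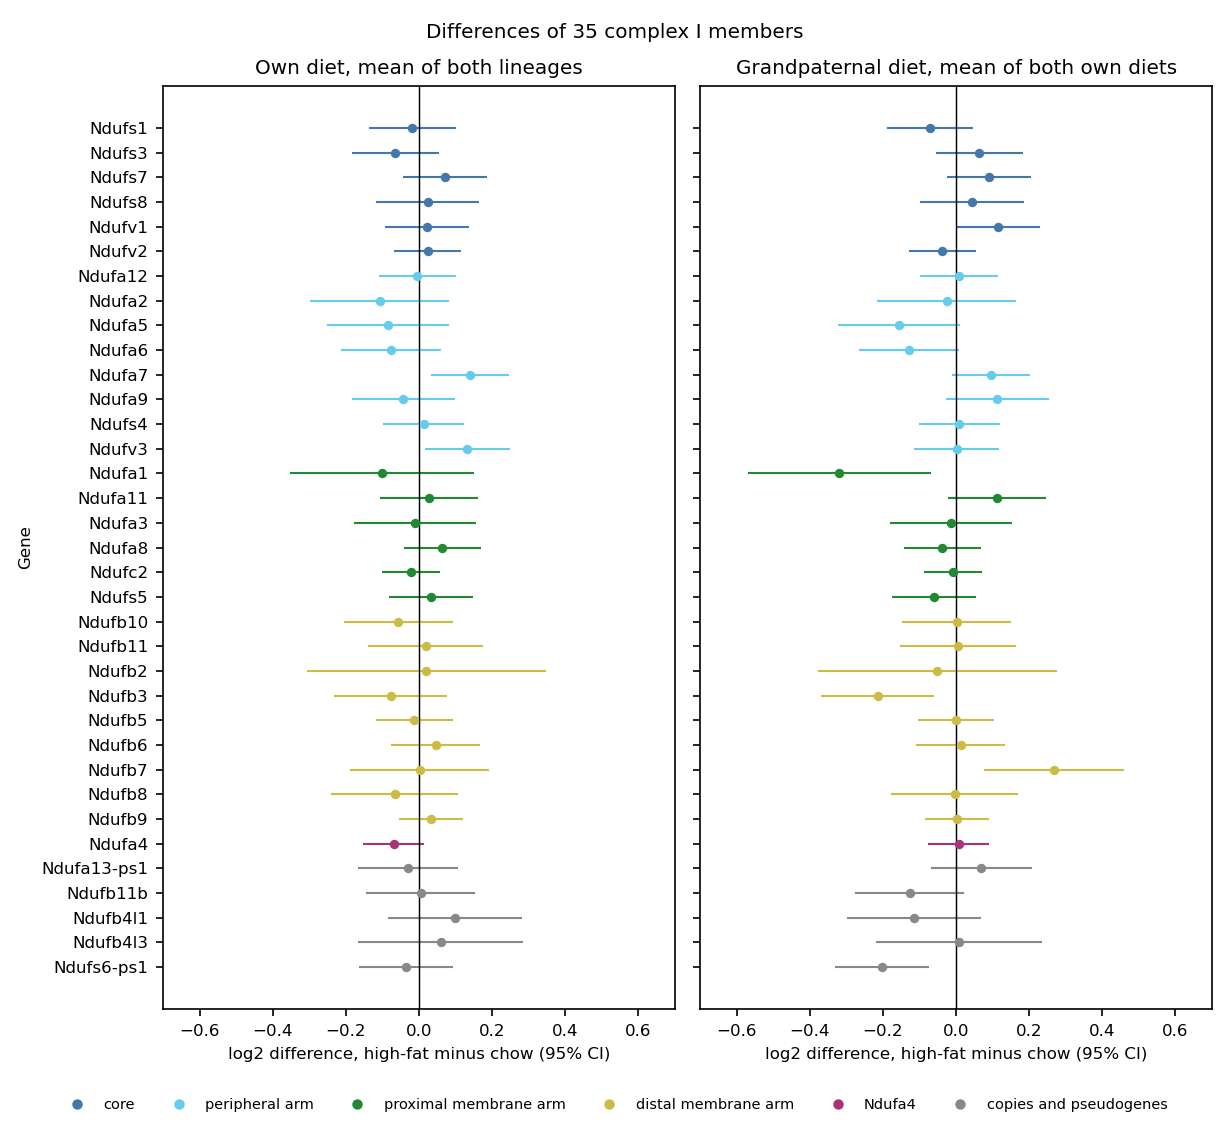
Differences of the 35 members between own diets (left) and grandpaternal diets (right), each averaged over the other diet, in log2, high-fat minus chow. Points are differences from the limma fit, bars are 95% confidence intervals, colours are structural groups, and the farthest points are Ndufa1 at -0.32 and Ndufb7 at 0.27 on the right.

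For the own diet averaged over both lineages, 18 members were higher and 17 lower in high-fat-fed females, with a median difference of 0.0023 log2 against -0.0028 over all genes. None of the 35 passed, against a background of 0.0158% of all genes (2 genes). At an unadjusted p under 0.05 there were 2 members, both with higher values, against 6.73% of all genes, which is 5.71% of the members. Ndufa7 had log2 levels of 9.92, 9.80, 9.78 and 9.97 in high-fat/high-fat females, 9.45, 9.74, 9.67 and 9.87 in high-fat/chow females, 9.68, 9.80, 9.71, 9.77 and 9.66 in chow/high-fat females and 9.67, 9.61, 9.66, 9.59 and 9.62 in chow/chow females. The values of the high-fat-fed females overlapped those of the chow-fed females in both lineages, and 1 high-fat/chow animal at 9.45 lay lowest of all. Its difference was 0.14 (SE 0.051, 95% confidence interval 0.03 to 0.25, limma adjusted p = 0.651). Ndufv3, a small accessory subunit at the NADH-oxidizing end, had log2 levels of 11.74, 11.57, 11.41 and 11.63 in high-fat/high-fat females, 11.41, 11.29, 11.35 and 11.56 in high-fat/chow females, 11.59, 11.66, 11.40, 11.58 and 11.45 in chow/high-fat females and 11.45, 11.60, 11.38, 11.37 and 11.46 in chow/chow females. The groups overlapped, and the difference of Ndufv3 was 0.13 (SE 0.056, limma adjusted p = 0.718). A second and dimmer probe set of Ndufv3, with a mean of 7.77, gave -0.017 (SE 0.10).

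Ndufa4, the complex IV subunit in question, was the member of smallest p with a lower value. It had log2 levels of 12.24, 12.27, 12.24 and 12.24 in high-fat/high-fat females, 12.36, 12.36, 12.34 and 12.21 in high-fat/chow females, 12.35, 12.13, 12.27, 12.21 and 12.25 in chow/high-fat females and 12.35, 12.27, 12.31, 12.28 and 12.34 in chow/chow females. The 4 high-fat/high-fat animals lay closest together of any member in any group (SD 0.016), and the groups overlapped. Its difference was -0.068 (SE 0.040, limma adjusted p = 0.809). The next members by p in that direction were Ndufa6 (-0.078, SE 0.065) and Ndufa2 (-0.11, SE 0.091), both of the peripheral arm, and Ndufs7 was the third of smallest p with a higher value (0.072, SE 0.055).

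In the chow lineage alone the own diet gave 20 higher and 15 lower members, with a median of 0.0076 against -0.0031 over all genes and a range from -0.12 to 0.26. None passed, against a background of 0% of all genes, and 0 members had an unadjusted p under 0.05, against 4.80% of all genes. The widest difference was that of Ndufb2, a distal-arm membrane subunit, which had log2 levels of 8.84, 9.37, 9.68, 9.75 and 9.79 in chow/high-fat females and 8.90, 9.01, 9.48, 9.70 and 9.04 in chow/chow females. The sets overlapped nearly throughout (0.26, SE 0.21, limma adjusted p = 0.9996). Ndufb11b, a copy of a distal-arm gene, had the smallest p (0.16, SE 0.094, limma adjusted p = 0.9996), with levels of 7.71, 7.53, 7.48, 7.37 and 7.47 in chow/high-fat females and 7.39, 7.35, 7.36, 7.23 and 7.42 in chow/chow females. The lower values of smallest p were those of Ndufa4 (-0.065, SE 0.053), Ndufb9 (-0.060, SE 0.056) and Ndufb7 (-0.12, SE 0.12). Ndufa7 gave 0.095 (SE 0.068). No member separated the 2 groups, against 0.759% of all genes. As deposited 2 members were higher and 33 lower, and with each array centred on its median 14 were higher and 21 lower.

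In the high-fat lineage the own diet gave 17 higher and 18 lower members, with a median of -0.0079 against -0.0013 over all genes. None passed, against 0% of all genes, and 3 members (8.57%) had an unadjusted p under 0.05, against 9.25% of all genes. These were Ndufa7 (0.19, SE 0.076), Ndufs7 (0.20, SE 0.082) and Ndufv3 (0.18, SE 0.083), with limma adjusted p = 0.482, 0.488 and 0.516. Ndufs7, the core subunit that carries the last iron-sulphur cluster before ubiquinone, had log2 levels of 12.29, 12.34, 12.38 and 12.47 in high-fat/high-fat females, 12.07, 12.28, 12.19 and 12.17 in high-fat/chow females, 12.40, 12.21, 12.18, 12.06 and 11.93 in chow/high-fat females and 12.22, 12.16, 12.18, 12.26 and 12.24 in chow/chow females. All 4 high-fat/high-fat animals lay above all 4 high-fat/chow animals, and Ndufs7 was the 1 member of 35 that separated these groups, against 4.12% of all genes. In the chow lineage the order was the other way, with means of 12.16 ± 0.17 in chow/high-fat and 12.21 ± 0.039 in chow/chow females (SD, n = 5 each). The lower values of smallest p in the high-fat lineage were those of Ndufa6 (-0.17, SE 0.097), Ndufa5 (-0.18, SE 0.12) and Ndufb8 (-0.19, SE 0.12), and the second probe set of Ndufv3 gave -0.093 (SE 0.15), opposite in sign to the first. Ndufa1 had the widest difference (-0.26, SE 0.18, limma adjusted p = 0.709), which was 0.11 without high-fat/high-fat animals 3 and 4, the animals lowest in Ndufa1. As deposited, with no scaling between arrays, 27 members were higher and 8 lower.

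For the grandpaternal diet averaged over both own diets, 18 members were higher and 17 lower in the high-fat lineage, with a median of 0.0013 against -0.0027 over all genes. None of the 35 passed, against a background of 0.198% of all genes (25 genes). There were 5 members (14.3%) at an unadjusted p under 0.05, against 14.6% of all genes: Ndufb7 and Ndufv1 with higher values, and Ndufs6-ps1, Ndufb3 and Ndufa1 with lower ones. Ndufb7 had log2 levels of 11.15, 11.53, 11.16 and 11.10 in high-fat/high-fat females, 10.77, 11.32, 11.31 and 11.02 in high-fat/chow females, 11.07, 10.39, 11.00, 10.81 and 10.94 in chow/high-fat females and 11.00, 11.02, 10.91, 10.93 and 10.96 in chow/chow females. The high-fat/high-fat animals all lay above the chow/high-fat ones, while the high-fat/chow animals lay on both sides of the chow/chow ones. Its difference was 0.27 (SE 0.091, 95% confidence interval 0.08 to 0.46, limma adjusted p = 0.178). Ndufv1, the core subunit that binds NADH and the flavin, had levels of 11.50, 11.73, 11.54 and 11.45 in high-fat/high-fat females, 11.51, 11.62, 11.63 and 11.39 in high-fat/chow females, 11.53, 11.24, 11.48, 11.54 and 11.44 in chow/high-fat females and 11.36, 11.35, 11.43, 11.55 and 11.41 in chow/chow females. The lineages overlapped at both own diets (0.11, SE 0.054, limma adjusted p = 0.337). Ndufa7 was the third of smallest p with a higher value (0.096, SE 0.051). With each array centred on its median, 9 members were higher and 26 lower.

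Ndufs6-ps1 had log2 levels of 10.48, 10.44, 10.50 and 10.30 in high-fat/high-fat females, 10.80, 10.51, 10.38 and 10.54 in high-fat/chow females, 10.54, 10.63, 10.79, 10.80 and 10.87 in chow/high-fat females and 10.62, 10.66, 10.83, 10.69 and 10.55 in chow/chow females. The high-fat/high-fat animals all lay below the chow/high-fat ones, and 1 high-fat/chow animal, at 10.80, lay far above the other 3 of its group. The difference was -0.20 (SE 0.061, 95% confidence interval -0.33 to -0.07, limma adjusted p = 0.136), and a second probe set gave -0.21 (SE 0.063). Without that high-fat/chow animal (replicate 1) the difference was -0.24 with a limma adjusted p = 0.0300, the 1 member called in any fit that left out 1 animal, and 303 of all genes then passed. Its parent Ndufs6, which encodes a zinc-binding subunit of the peripheral arm, was not analysed here. Ndufb3 had levels of 10.37, 10.16, 9.93 and 9.84 in high-fat/high-fat females, 10.40, 10.23, 10.08 and 10.22 in high-fat/chow females, 10.27, 10.20, 10.33, 10.64 and 10.42 in chow/high-fat females and 10.30, 10.40, 10.52, 10.30 and 10.31 in chow/chow females. Its lowest values were those of high-fat/high-fat animals 3 and 4, and its difference was -0.21 (SE 0.074, limma adjusted p = 0.182).

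Ndufa1 had the widest difference between grandpaternal diets. Its log2 levels were 9.15, 8.74, 8.22 and 8.17 in high-fat/high-fat females, 8.998, 8.44, 8.66 and 9.23 in high-fat/chow females, 9.005, 8.83, 9.17, 8.97 and 9.26 in chow/high-fat females and 8.996, 8.998, 8.95, 9.09 and 8.92 in chow/chow females. The chow/chow animals lay close together (SD 0.064, n = 5) and the high-fat/high-fat animals far apart (SD 0.46, n = 4), with animals 3 and 4 lowest of all 18, and the difference was -0.32 (SE 0.12, 95% confidence interval -0.57 to -0.07, limma adjusted p = 0.222). Without high-fat/high-fat animals 3 and 4 it was -0.13 (limma adjusted p = 0.607). Deposited intensities of Ndufa1 were 616, 463, 295 and 298 in high-fat/high-fat females and 423, 300.4, 427 and 645 in high-fat/chow females.

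**Figure D2:**
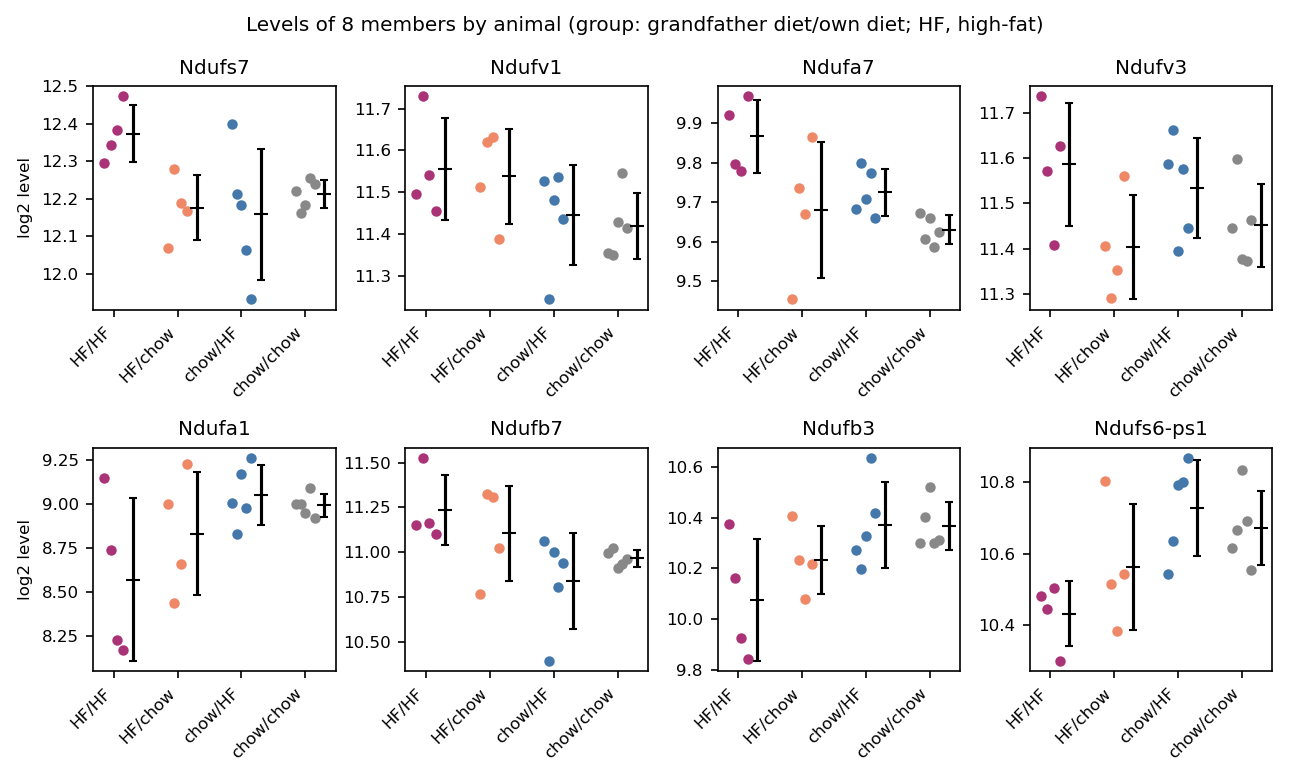
Log2 levels of 8 members in every animal, by group (diet of the grandfather, then of the female; HF, high-fat). Points are animals, bars are the group mean and SD; the high-fat/high-fat animals of Ndufs7 sit above the high-fat/chow ones, and the same group has an SD of 0.46 for Ndufa1.

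Among chow-fed females the grandpaternal diet gave 18 higher and 17 lower members, with a median of 0.0068 against -0.0017 over all genes and a range from -0.19 to 0.19. None passed, against 0.00791% of all genes (1 gene), and 0 had an unadjusted p under 0.05, against 8.75% of all genes. The smallest p was that of Ndufa8, a twin-cysteine-motif subunit of the proximal membrane arm, with levels of 10.70, 10.73, 10.83 and 10.80 in high-fat/chow females and 10.88, 10.94, 10.81, 10.92 and 10.93 in chow/chow females. Of the 4 high-fat/chow animals 3 lay below every chow/chow animal (-0.13, SE 0.072, limma adjusted p = 0.644). The widest difference was that of Ndufb4l1, a copy of a distal-arm gene (-0.19, SE 0.12, limma adjusted p = 0.696). It had levels of 6.95, 6.84, 6.36 and 6.81 in high-fat/chow females and 7.14, 6.82, 6.94, 6.83 and 6.91 in chow/chow females, and 1 high-fat/chow animal, at 6.36, lay far below the others. Higher values of smallest p were those of Ndufv1 (0.12, SE 0.077), Ndufa13-ps1 (0.14, SE 0.093) and Ndufa11 (0.12, SE 0.091), a subunit of the proximal membrane arm. Ndufb9 gave -0.090 (SE 0.059). No member separated the lineages, against 3.28% of all genes. As deposited 8 members were higher and 27 lower.

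Among high-fat-fed females the grandpaternal diet gave 17 higher and 18 lower members, with a median of -0.0020 against 0.0011 over all genes and the widest range for this diet, from -0.48 to 0.39. None passed, against 0% of all genes, and the smallest limma adjusted p was 0.152. At an unadjusted p under 0.05 there were 8 members (22.9%), 2 higher and 6 lower, against 13.3% of all genes. Ndufb7 (0.39, SE 0.13, limma adjusted p = 0.189) and Ndufs7 (0.22, SE 0.077, limma adjusted p = 0.231) had higher values, and Ndufa7 followed (0.14, SE 0.072, limma adjusted p = 0.407). Those with lower values were Ndufs6-ps1 (-0.30, SE 0.087), Ndufb11b (-0.28, SE 0.10), Ndufb3 (-0.30, SE 0.10), Ndufa1 (-0.48, SE 0.17), Ndufa6 (-0.22, SE 0.092) and Ndufa5 (-0.26, SE 0.11). Ndufb11b had log2 levels of 7.44, 7.28, 6.90 and 7.30 in high-fat/high-fat females, against 7.71, 7.53, 7.48, 7.37 and 7.47 in chow/high-fat females, so 1 high-fat/high-fat animal lay within the range of the chow/high-fat ones. Groups were separate for 2 members, Ndufb7 with higher and Ndufs6-ps1 with lower values, against 4.71% of all genes. Without high-fat/high-fat animals 3 and 4, the animals lowest in Ndufa1, the difference of Ndufa1 was -0.11 (limma adjusted p = 0.856) and that of Ndufs6-ps1 was -0.27 (limma adjusted p = 0.423).

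The interaction is the own-diet difference in the high-fat lineage minus that in the chow lineage. None of the 35 members passed, against 0% of all genes, with 15 higher, 20 lower and a median of -0.011 against 0.0042 over all genes. At an unadjusted p under 0.05 there were 3 members (8.57%), against 6.83% of all genes. Ndufs7 gave 0.25 (SE 0.11, limma adjusted p = 0.695), Ndufb9, a distal-arm subunit, gave 0.19 (SE 0.084, limma adjusted p = 0.698), and Ndufb11b gave -0.32 (SE 0.14, limma adjusted p = 0.698). Ndufb2 had the widest value at -0.48 (SE 0.31), with high-fat/high-fat levels of 9.73, 9.38, 8.83 and 8.84 and high-fat/chow levels of 9.61, 9.10, 9.19 and 9.75 beside the chow-lineage levels given above. Ndufa8 gave 0.19 (SE 0.10) and Ndufs6-ps1 -0.19 (SE 0.12). As deposited 32 members were higher and 3 lower. The interaction was the least precise comparison: the interval stayed within 1.5-fold for 30 of 35 members and within 1.25-fold for 13.

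Split by position in the complex, no structural group had all its members on 1 side in either averaged comparison. Between grandpaternal diets, over both own diets, 4 of 6 core subunits were higher (median 0.054, from -0.072 to 0.11), 5 of 8 peripheral-arm subunits (median 0.0044), 1 of 6 proximal-arm subunits (median -0.026) and 5 of 9 distal-arm subunits (median 0.0013), while 3 of 5 copies and pseudogenes were lower (median -0.12). Between own diets, over both lineages, 4 of 6 core subunits were higher (median 0.023), 3 of 8 in the peripheral arm (median -0.024), 3 of 6 in the proximal arm (median 0.0083) and 5 of 9 in the distal arm (median 0.0023). Ndufb5 and Ndufb8, membrane-arm subunits, show the spread inside 1 group. Ndufb8 had log2 levels of 10.88, 10.65, 10.18 and 10.11 in high-fat/high-fat females, 10.67, 10.59, 10.57 and 10.73 in high-fat/chow females, 10.47, 10.54, 10.69, 10.52 and 10.67 in chow/high-fat females and 10.60, 10.46, 10.42, 10.60 and 10.53 in chow/chow females. Ndufb5 had 12.16, 12.06, 11.96 and 11.76 in high-fat/high-fat females, 12.02, 12.07, 11.98 and 11.98 in high-fat/chow females, 12.04, 11.83, 12.05, 12.04 and 12.05 in chow/high-fat females and 12.03, 12.00, 12.01, 11.98 and 11.97 in chow/chow females. For both genes high-fat/high-fat animals 3 and 4 lay below animals 1 and 2, and animal 4 had the lowest value of all 18.

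That division of the high-fat/high-fat group showed in the mean of the family, but unevenly over its parts. To score each animal, every member was centred over all animals and the 35 centred levels were averaged. It was 0.11, 0.070, -0.12 and -0.11 in high-fat/high-fat females, -0.020, 0.0075, -0.017 and 0.020 in high-fat/chow females, 0.010, -0.056, 0.064, 0.023 and 0.019 in chow/high-fat females and 0.022, -0.0082, -0.0061, 0.00022 and 0.0017 in chow/chow females. High-fat/high-fat animals 1 and 2 held the highest scores of all 18 and animals 3 and 4 the lowest on this scale, a ranking that other scalings changed. As deposited the scores of these 4 animals were 0.26, 0.17, -0.11 and -0.071, and high-fat/chow animals 1 (-0.25) and 2 (-0.12) and chow/high-fat animals 4 (-0.12) and 5 (-0.19) lay below animals 3 and 4. With each array centred on its median they were 0.22, 0.044, -0.13 and -0.20, chow/high-fat animal 4 (0.052) and chow/chow animal 2 (0.087) lay above animal 2, and high-fat/chow animal 1 (-0.18) lay below animal 3. Animals 1 and 2 had scores above 0 and animals 3 and 4 below 0 on all 3 scales. Of the 35 members 26, 24, 9 and 13 lay above their own mean in high-fat/high-fat animals 1 to 4. Scored by part, these animals had 0.16, 0.071, -0.20 and -0.15 in the proximal membrane arm and 0.17, 0.10, -0.17 and -0.17 in the distal arm. The peripheral arm gave 0.12, 0.011, -0.052 and -0.13. The core gave 0.048, 0.15, -0.0091 and -0.037, and chow/high-fat animals 2 (-0.12) and 5 (-0.10) lay lower. Some members, such as Ndufs4 and Ndufb6, were higher in high-fat/high-fat animals 3 and 4 than in animals 1 and 2. For the score of all 35 members the group means were close to each other, at -0.015 ± 0.12, -0.0024 ± 0.019 (SD, n = 4 each), 0.012 ± 0.043 and 0.0019 ± 0.012 (SD, n = 5 each) in the same order of groups.

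**Figure D3:**
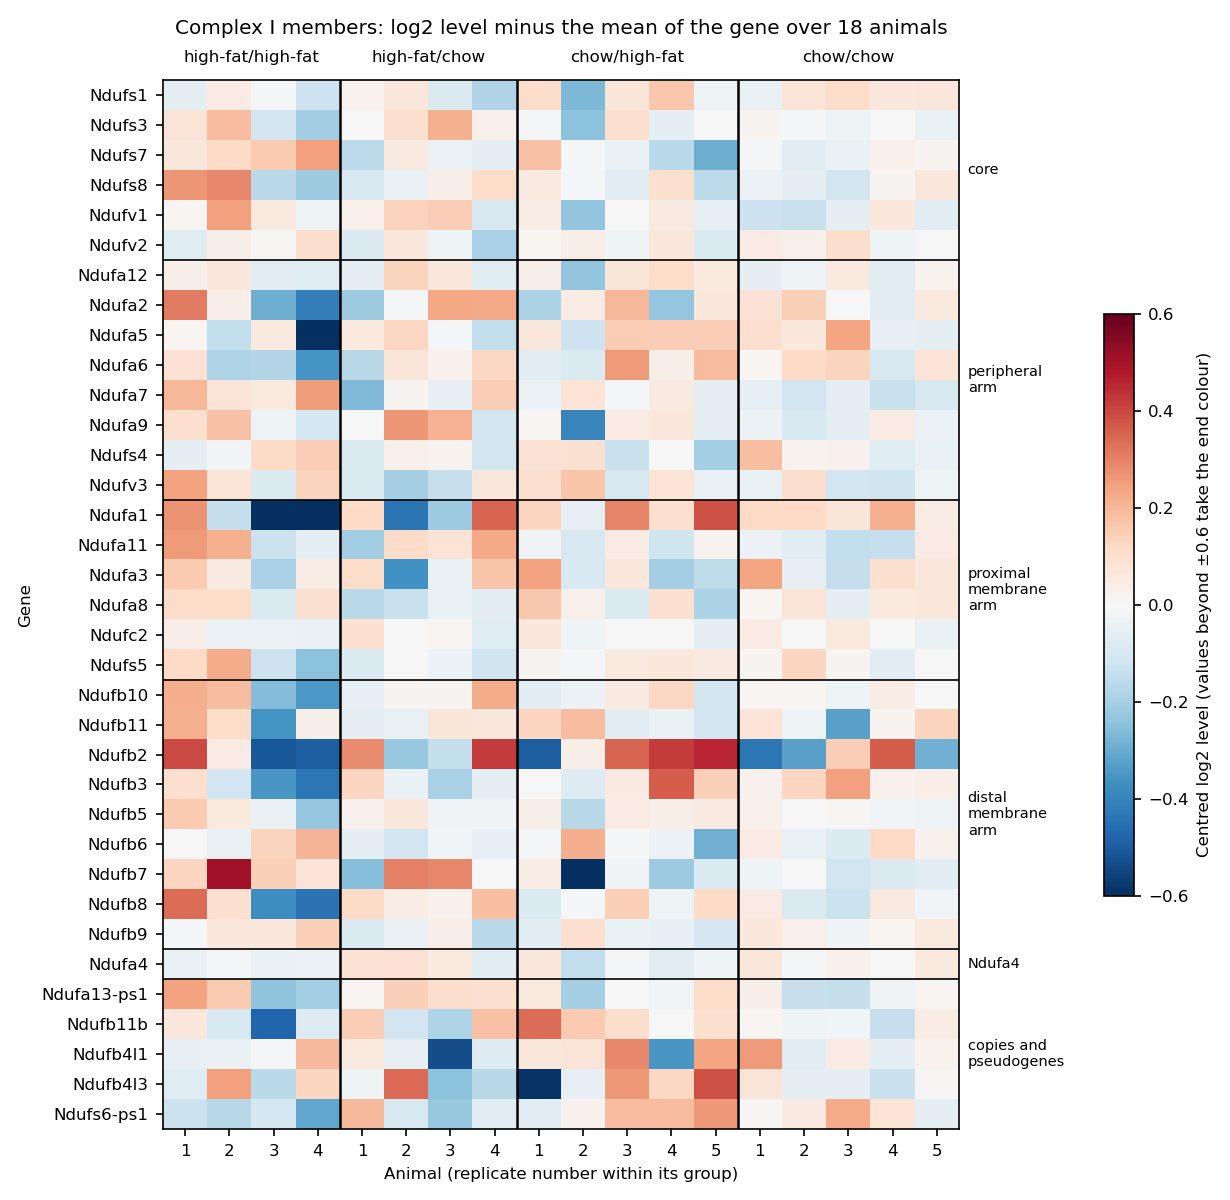
Log2 level of each of the 35 members in each of the 18 animals, minus the mean of that gene over all animals; rows are genes by structural group, columns are animals by group, red is above and blue below the mean. In high-fat/high-fat animals 3 and 4 only 9 and 13 of the 35 members lie above their mean.

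Within the high-fat/high-fat group red-blood-cell and fat-cell markers moved with this division. Slow-fibre markers were low in 1 animal of the group, and the part of these markers in the division was not tested. Markers of red blood cells (4 of 6 measured) had scores of 0.85, 0.84, -0.62 and -0.75 in high-fat/high-fat animals 1 to 4, and their summed intensities ran from 1462 to 6059 in high-fat/high-fat, 1751 to 3190 in high-fat/chow, 1254 to 6043 in chow/high-fat and 1616 to 3193 in chow/chow females. Markers of slow fibres (10 of 10 measured), which are rich in mitochondria, had scores of 0.38, 0.59, 0.24 and -1.11 in the same 4 animals, with summed intensities of 4930 to 17816, 5488 to 13427, 5896 to 19206 and 10832 to 19550 in the 4 groups in the same order. A code in the sample titles reads as the well of a plate, which the labels do not explain, and its column was 9 for high-fat/high-fat animals 1 and 2, 5 for animal 3 and 7 for animal 4. Some codes stood on animals of both lineages, so the same column need not mean the same plate. Within columns 5, 7 and 9 the median member difference between own diets in the high-fat lineage was -0.11, -0.12 and 0.079, from 1 or 2 animals a side, against -0.0079 over all columns. For the grandpaternal diet in high-fat-fed females it was -0.084 in column 5 and -0.044 in column 7, and column 9, with high-fat/high-fat animals 1 and 2, held no chow/high-fat animal to set them against. With the animals of column 9 included it was -0.0020.
Without high-fat/high-fat animals 3 and 4 the median member difference was 0.11 between own diets in the high-fat lineage and 0.11 between grandpaternal diets in high-fat-fed females, and 0 members passed in all 7 comparisons. That fit was added to those planned and leaves out the animals of lowest score, so a higher median follows from the choice.

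The spread within groups was widest in the same group. The median SD of the members was 0.17 log2 in high-fat/high-fat females, against 0.12 over all genes, and 0.071 in chow/chow females, against 0.11 over all genes. It was 0.11 against 0.13 in high-fat/chow females and 0.13 against 0.13 in chow/high-fat females. Pooled over groups, members were as variable as other genes, with a median SD of 0.14 for both. Ndufc2, a subunit of the membrane arm, had the smallest pooled SD (0.049), followed by Ndufa4 (0.059) and Ndufb9 (0.066), and Ndufb2 (0.38), Ndufa1 (0.29) and Ndufb4l3 (0.25) had the largest.

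**Figure D4:**
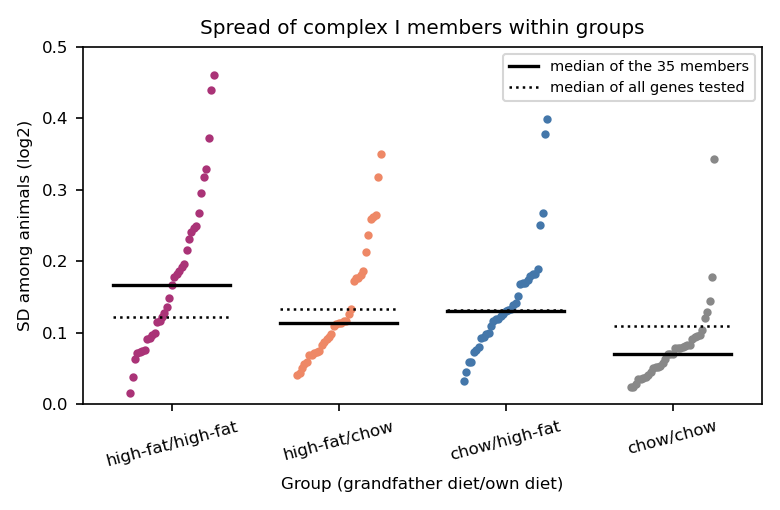
SD among animals of each of the 35 members (points, sorted) in each group, in log2, with the median of the members as a solid line and the median of all genes tested as a dotted line. The members' median is above that of all genes in the high-fat/high-fat group (0.17 against 0.12) and below it in the chow/chow group (0.071 against 0.11).

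Members varied together more often than other genes, but not as 1 unit. Over 595 pairs of members, the median Pearson correlation of deviations from the group means was 0.12, against -0.00014 over the 79903761 pairs of all genes, where each pair shares the same 18 arrays and their RNA. Correlations over 0.5 made up 19.3% of member pairs and 4.44% of all pairs, and those under -0.5 made up 5.55% and 4.35%. The highest were between Ndufs8 and Ndufb10 (0.91), Ndufv1 and Ndufa9 (0.89), Ndufa9 and Ndufa12 (0.88), and Ndufb8 and Ndufa1 (0.86). In high-fat/high-fat females the SD was 0.27 for Ndufs8 and 0.30 for Ndufb10, against at most 0.10 and 0.12 in the other groups. How far the division of the high-fat/high-fat group carries these correlations was not tested. The lowest correlations were between Ndufv2 and Ndufa1 (-0.79), Ndufs4 and Ndufb2 (-0.79), and Ndufs6-ps1 and Ndufs7 (-0.72). Ndufs4, which late assembly of the peripheral arm needs, Ndufb9 and Ndufb6 had mean correlations with the other members of -0.15, -0.17 and -0.21, against 0.28 for Ndufs3 and for Ndufb10. Ndufs7 was also on the negative side (-0.052), and it was highest in high-fat/high-fat animal 4, where most members were low.

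The other respiratory complexes were read from lists in the same fit. None of 4 measured genes of complex II, 9 of complex III, 12 of complex IV, 17 of complex V, 15 complex I assembly factors or 12 regulators of mitochondrial biogenesis passed in any comparison. The smallest adjusted p-values stood between grandpaternal diets over both own diets, for Atp5f1e, the epsilon subunit of ATP synthase (0.16, SE 0.046, limma adjusted p = 0.121), Cox7a2, a small subunit of complex IV (0.19, SE 0.054, limma adjusted p = 0.124), and Sdhd, a membrane anchor of complex II (0.16, SE 0.048, limma adjusted p = 0.128). Tfam, which packages mitochondrial DNA, gave -0.24 (SE 0.083, limma adjusted p = 0.207) between grandpaternal diets in high-fat-fed females, and the assembly factor Ndufaf2 gave -0.50 (SE 0.17, limma adjusted p = 0.207). Genes of complexes II to V together had mean scores of 0.12, 0.054, -0.11 and -0.14 in high-fat/high-fat animals 1 to 4, with animals 1 and 2 above and animals 3 and 4 below as in complex I, and complex V alone reached -0.18 and -0.20 in animals 3 and 4. Complex III was not divided in this way, with 0.12, 0.058, 0.020 and -0.060 in the same animals. High-fat/chow animal 1 (-0.11) and chow/high-fat animal 2 (-0.085) had lower complex III scores. Of the assembly factors, the score was low in animal 4 alone of the high-fat/high-fat group (-0.20), against -0.0011 in animal 3.

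**Figure D5:**
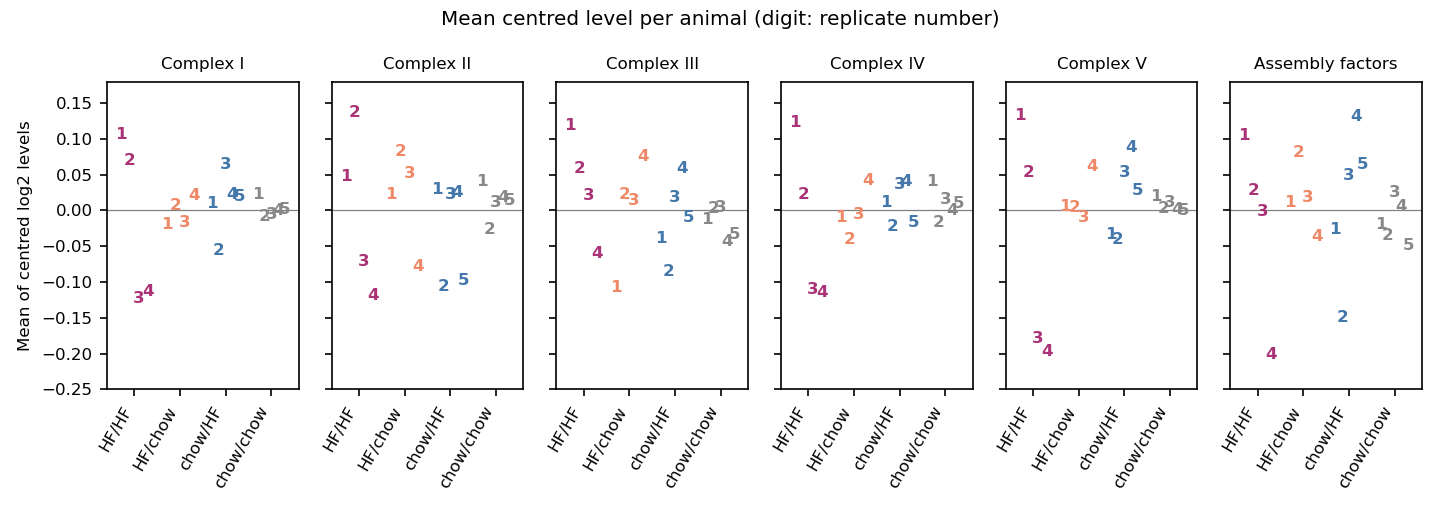
Mean of the centred log2 levels of the genes of each respiratory complex and of the complex I assembly factors, 1 panel each; a digit is the replicate number of an animal, placed in its group. High-fat/high-fat animals 3 and 4 lie at -0.12 and -0.11 for complex I and at -0.18 and -0.20 for complex V.

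The kept probe sets were compared with the 7 other probe sets of 5 member genes. In 42 of 49 pairs of probe set and comparison the sign was the same. Directions also depended on how arrays were scaled. Values as deposited, with no scaling between arrays, moved the median of all genes by -0.13 for the own diet in the chow lineage and by 0.18 for the grandpaternal diet in high-fat-fed females, and the members moved with them: 2 were higher and 33 lower in the first comparison, and 28 higher and 7 lower in the second. On that scale 2 members passed between grandpaternal diets in high-fat-fed females, Ndufb7 (0.56, SE 0.15, limma adjusted p = 0.0268) and Ndufa7 (0.37, SE 0.12, limma adjusted p = 0.0426), as did 1689 of all genes. With each array centred on its median, members between grandpaternal diets in chow-fed females had a median of -0.085, against -0.019 over all genes, with 10 higher and 25 lower.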

How the data were processed

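RNA of 18 muscles (200 ng each, per the labels' protocols) was hybridized to Affymetrix whole-transcript arrays. Each deposited value is a linear intensity of 1 probe set, made by the authors with Affymetrix Expression Console and PLIER per the submitters' processing notes, with versions and settings not given in the sources used here. From the deposited intensities, log2(intensity + 16) was computed and quantile normalized (limma 3.58.1, R 4.3.3). Probe sets with exactly 1 symbol in the probe table were kept (18197 of 20917; 960 had several and 1760 none), then 1 per gene by highest mean, then genes above the 25th percentile of the means (5.28 log2). A model of 4 group means on all 18 arrays was fitted with lmFit and eBayes (14 residual degrees of freedom) and gave 7 comparisons, each adjusted with Benjamini-Hochberg over 12642 genes at 0.05. It was tried on simulated data with independent normal values. That check required recovery only of differences wider than any member showed, so it does not bear on smaller ones. The number of arrays limits the precision.

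Members and lists were chosen with earlier results of these data known. Values in every animal are given for the members of smallest p and of widest difference in each comparison and for Ndufv1, Ndufb5, Ndufb8 and Ndufa4. The members given with their differences are the 3 of smallest p in each direction. The values of Ndufb7, Ndufb3 and Ndufv3 in every animal, and further members at an unadjusted p under 0.05 (Ndufa5, Ndufa6), were added after values were seen. Alternatives were scaling, offset, filter, probe sets, eBayes settings, the compared groups alone, the well column and neighbouring animal numbers as blocks, and each array left out. Leaving out high-fat/high-fat animals 3 and 4, the lowest in member score, was not planned but added. Replicates are numbered in record order, and the labels state no pairing of animals. In the chow lineage, however, females with the same replicate number had neighbouring animal numbers across own diets. Neighbouring animal numbers within a lineage, whose meaning the labels do not give, formed 8 blocks of 2 animals. Each block held a chow-fed and a high-fat-fed female. As a random block they had a consensus correlation of 0.126. The main fit did not use these blocks, so its tests ignore any pairing across own diets.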

Additional observations from a re-analysis of the deposited data

Results flagged for a closer look

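Of 80 sets of values by group (15 members and 5 scores), 7 held an animal apart from the rest of its group by Dixon's criterion, where chance flags about 1 in 20. Ndufa8 was 10.78 log2 in high-fat/high-fat animal 3, lowest of its group, against 10.96 for the nearest. Ndufb4l1 was 7.09 in high-fat/high-fat animal 4, highest of its group, against 6.88. Ndufb7 was 11.53 in high-fat/high-fat animal 2, highest of its group, against 11.16. Ndufa4 was 12.21 in high-fat/chow animal 4, lowest of its group, against 12.34. Ndufb5 was 11.83 in chow/high-fat animal 2, lowest of its group, against 12.04. The score of the distal membrane arm was 0.066 in high-fat/chow animal 4, against 0.0069 for the nearest, and 0.059 in chow/chow animal 4, against -0.015. The split of the high-fat/high-fat group into 2 higher and 2 lower animals is not of the kind this criterion finds. No interaction of the 35 members passed the threshold.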

How the results depend on the processing

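Over 11 planned and 3 added settings and 18 fits that each left out 1 array, the count of members past the threshold stayed at 0 in 219 of 221 values. The exceptions were 2 members with values as deposited (grandpaternal diet in high-fat-fed females) and 1 without high-fat/chow replicate 1 (grandpaternal diet over both own diets, where the fits that left out 1 array gave 0 to 1). Of the added settings, 1 counted only the 29 core and accessory subunits in the main fit, so its counts of 0 were fixed in advance. The members of smallest p and of widest difference in each comparison (8 genes) kept their sign in all but 1 of 398 values, and the signs of single other members were not followed: without high-fat/high-fat animals 3 and 4, Ndufa1 between own diets in the high-fat lineage gave 0.11, against -0.26. Median member differences as deposited were -0.12 for the own diet in the chow lineage and 0.087 in the high-fat lineage, -0.12 and 0.15 for the grandpaternal diet in chow-fed and high-fat-fed females, and 0.23 for the interaction, where the median of all genes moved to -0.13, 0.11, -0.056, 0.18 and 0.24. Array centring gave -0.085 for the grandpaternal diet in chow-fed females. Leaving out high-fat/high-fat animals 3 and 4 gave 0.11 and 0.11 for the own diet in the high-fat lineage and the grandpaternal diet in high-fat-fed females, and 0.072 for the interaction. These animals had the lowest member scores, so such rises follow from leaving them out.

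Counts over all genes varied more, and the cause was not tested. Between grandpaternal diets over both own diets (25 genes) they were 0 as deposited, with array centring, an offset of 1, either block, or without chow/high-fat animals 4 and 5, 10 without high-fat/high-fat animals 3 and 4, 38 with an offset of 64, 41 with the filter at the 50th percentile, 43 with trended and robust eBayes, 66 over all probe sets, and 0 to 303 leaving out 1 array. For the own diet over both lineages (2 genes) they were 0 with an offset of 1 or without chow/high-fat animals 4 and 5, 4 as deposited, 5 with array centring or trended and robust eBayes, 6 with an offset of 64, 14 and 15 with the neighbour and well-column blocks, 18 without high-fat/high-fat animals 3 and 4, and 0 to 14 leaving out 1 array. For the grandpaternal diet in chow-fed females (1 gene) they were 0 as deposited, with either offset, over all probe sets or with the well-column block, 2 with the compared groups alone, 3 without high-fat/high-fat animals 3 and 4, and 0 to 2 leaving out 1 array. For the grandpaternal diet in high-fat-fed females (0 genes) they were 1689 as deposited, 1 with an offset of 1, 9 over all probe sets, and 0 to 56 leaving out 1 array. As deposited, 1 gene passed for the own diet in the chow lineage and 1 for the interaction, and for the own diet in the high-fat lineage leaving out 1 array gave 0 to 1.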
